A study of Danio rerio with 6 samples.

Results

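The carriers described here are the members of 10 solute carrier families that move inorganic ions and metals across membranes. They were chosen with earlier results of these data known. The rule took the entries whose symbol places them in SLC4, SLC8, SLC9, SLC12, SLC20, SLC24, SLC26, SLC30, SLC34 or SLC39, leaving out slc4a1a and slc24a5. This gave 64 of the 21228 entries of the table. Pentachlorophenol (PCP) is a pesticide and wood preservative that uncouples oxidative phosphorylation. Wild-type Tuebingen zebrafish embryos were exposed whole to PCP at 0, 5 or 200 μg/l starting near 1 hpf, always with the same share of the DMSO vehicle, the controls included. They were collected at 10 hpf (10C, 0 μg/l; 10L, 5 μg/l; 10H, 200 μg/l) or at 24 hpf (24C, 24L and 24H, in the same order), and each of the 6 groups was 1 pool of embryos sequenced as 1 library.

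Solute carriers are membrane proteins that carry small solutes along or against their gradients without using ATP themselves. The 10 families divide the work by ion. SLC39 proteins bring zinc and related metals into the cytosol and most SLC30 proteins take zinc out of it, while SLC20 and SLC34 proteins take up phosphate with sodium. SLC8 and SLC24 proteins exchange sodium for calcium, the latter with potassium. Most SLC4 proteins carry bicarbonate, and SLC26 proteins exchange anions such as sulfate, chloride and iodide. SLC12 proteins move chloride together with sodium or potassium, and SLC9 proteins exchange sodium for protons. In the zebrafish embryo several of them work in the ionocytes of the skin and in the pronephros, before gills have formed.

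Of the 64 entries, 63 were mRNA and 1, slc34a2aas, was an RNA antisense to slc34a2a. Since strand was not given in the sources used here, the reads of this pair cannot be told apart. Neither slc4a1ap, an adaptor protein, nor slc9a3r1, a scaffold, is itself a carrier, although the names match. By accession or gene number 62 members matched RefSeq, 55 of them under the same symbol. The accession of the entry slc12a1 belongs to frmd4a in RefSeq, and the closest human gene given for it is FRMD4A, so its values are probably not those of the cotransporter. The entries slc12a1, slc34a2aas, slc4a1ap and slc9a3r1 stay in all counts of carriers below. None of them was called in a treated library against its control. The entries slc9a3 and slc12a10 carried shortened names with no accession and may each join several neighbouring copies.

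The deposited value of a gene is a normalized count, the mapped reads times 1 factor per library, and the reads behind every value were recovered from it. They came to between 47409208 and 59864868 per library. Genes tested numbered 21217, the carriers among them, after 11 entries that joined many clone transcripts had been left out, which held 13.9% to 15.5% of the reads. FC is the normalized count of one library over that of another, with its 95% Clopper-Pearson interval in parentheses. The words rose and fell are used for a gene whose FC was more than 2 in either direction with an unadjusted p under 0.05 in an exact binomial test of the reads, which was two-sided. With 1 library per group, interval and test cover counting error only and compare 2 libraries, not 2 conditions, and nothing in the data measures how pools of embryos vary. The labels of age were checked in the controls, where 6 of 6 skeletal muscle, 6 of 6 heart muscle and 5 of 5 lens genes were higher in 24C than in 10C. Other lists went lower, with 8 of 8 tail bud and 4 of 6 epidermal genes lower in 24C, and 3 of 6 pronephros genes lower with 2 higher. Whether embryos were whole cannot be read from this.

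The 64 carriers together held 0.144% of all normalized counts in 10C, 0.151% in 10L and 0.156% in 10H, against 0.0913% in 24C, 0.0891% in 24L and 0.125% in 24H. The share was lower at 24 hpf than at 10 hpf in every group, and 24H lay nearest to the younger embryos. Carriers with high counts weigh most in it: SLC39 summed to 37918 in 10C and 17564 in 24C. The median log2 FC of 24C against 10C was 0.006 for the 58 carriers with at least 10 reads on average (1 added), against 0.07 for all genes. Counts are not divided by transcript length here, so genes are compared across libraries and not with each other. All 3 libraries at 24 hpf lay above all 3 at 10 hpf for 25 carriers (39.1%, against 30.3% of all genes) and below them for 14 (21.9%, against 25.8%). Depth was sufficient for most members: 50 had at least 50 reads in at least 1 library, 47 had at least 10 reads in every library, 9 had 0 reads in at least 1, and 5 averaged under 10 reads (slc4a8, slc8a4b, slc26a6l, slc30a2 and slc34a2a).

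**Figure D1:**
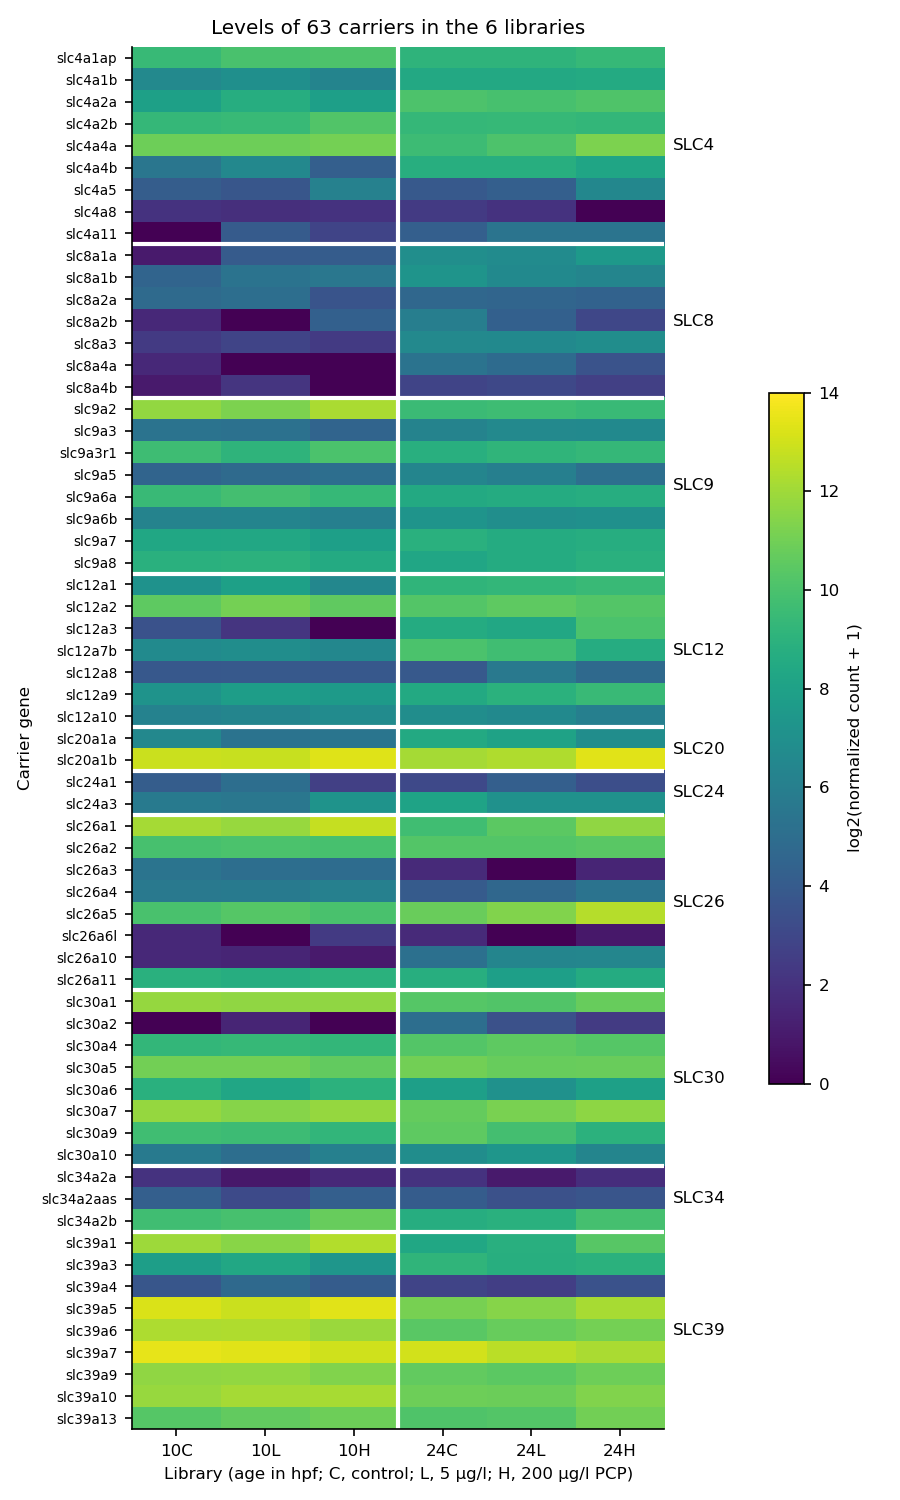
Levels of 63 of the 64 carriers (rows, grouped by family) in the 6 libraries (columns), as log2 of the normalized count plus 1. Several rows turn from light at 10 hpf to darker at 24 hpf, for example slc39a1, from 3880.0 in 10C to 319 in 24C, while others such as slc12a3 are dark at 10 hpf, with at most 10.5, and light at 24 hpf.

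The most carriers were called in the older embryos given the higher dose. In 24H, 13 carriers rose (20.3%) and 9 fell (14.1%), where 11.9% of all genes tested rose and 16.4% fell. Those that rose with the most reads were the zinc importers slc39a1 and slc39a5, the anion exchangers slc26a1 and slc26a5, the bicarbonate cotransporter slc4a4a, the sodium-chloride cotransporter slc12a3 and the phosphate cotransporters slc20a1b and slc34a2b. Those that fell included the zinc carriers slc30a9 and slc30a2, the second SLC20 gene slc20a1a, the chloride carrier slc12a7b and the calcium exchangers slc8a2b, slc8a4a and slc24a3. The median log2 FC of the 57 carriers with at least 10 reads on average was 0.19 (1 added to the normalized counts), against -0.03 for all genes, and 33 of them lay above 0. Without the minimum of reads the median of the carriers was 0.09.

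Elsewhere fewer carriers were called. In 24L 3 rose (4.69%, against 3.50% of all genes) and 3 fell (4.69%, against 4.18%). In 10H 7 rose (10.9%, against 6.69%) and 5 fell (7.81%, against 6.33%), and in 10L 4 rose (6.25%, against 3.65%) and 2 fell (3.12%, against 2.39%). These shares rest on few genes, since 1 carrier is more than 1% of the group. The median log2 FC of the carriers was 0.03 in 24L, 0.03 in 10H and 0.07 in 10L, beside -0.02, 0.02 and -0.02 for all genes. Over the 4 comparisons 29 carriers (45.3%, against 40.0% of all genes tested) were called at least once and 35 never. At 200 μg/l 3 of them (4.69%, against 1.91% of all genes) were called in opposite directions at the 2 ages, slc8a2b, slc12a3 and slc24a3. Both doses of an age share 1 control, so a call at both is not a repeat of the result.

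At 24 hpf the level went up with dose, 24C below 24L below 24H, for 24 of 58 carriers (41.4%, against 29.9% of all genes with at least 10 reads on average). It went down with dose for 13 (22.4%, against 32.4%). At 10 hpf 10 of 52 went up (19.2%, against 18.6%) and 4 went down (7.69%, against 17.3%). The order of 3 single libraries has no estimate of error.

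Markers of tissues and of stage moved in the same comparison. In 24H all 8 tail bud and presomitic mesoderm genes rose, their summed level being 17.4 times that of 24C, while in 24C it was 0.0191 times that of 10C. All 5 lens, all 6 skeletal muscle and all 6 pigment cell genes fell, with summed levels 0.0283, 0.136 and 0.0881 times those of 24C, and crygm2d3 had 0 reads in 24H. The red blood cell genes fell in 5 of 6 (summed ratio 0.0585) and the neuronal genes in 7 of 8 (0.371), while 4 of 6 epidermal genes rose (2.13) and 3 of 6 pronephros genes rose with 1 that fell (2.05). In 24L the tail bud genes rose in 6 of 8 and the lens genes fell in 5 of 5. Whole embryos were measured, so fewer or more cells of a type and less or more RNA per cell cannot be told apart, and the part of these shifts in the carriers' values was not tested.

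**Figure D2:**
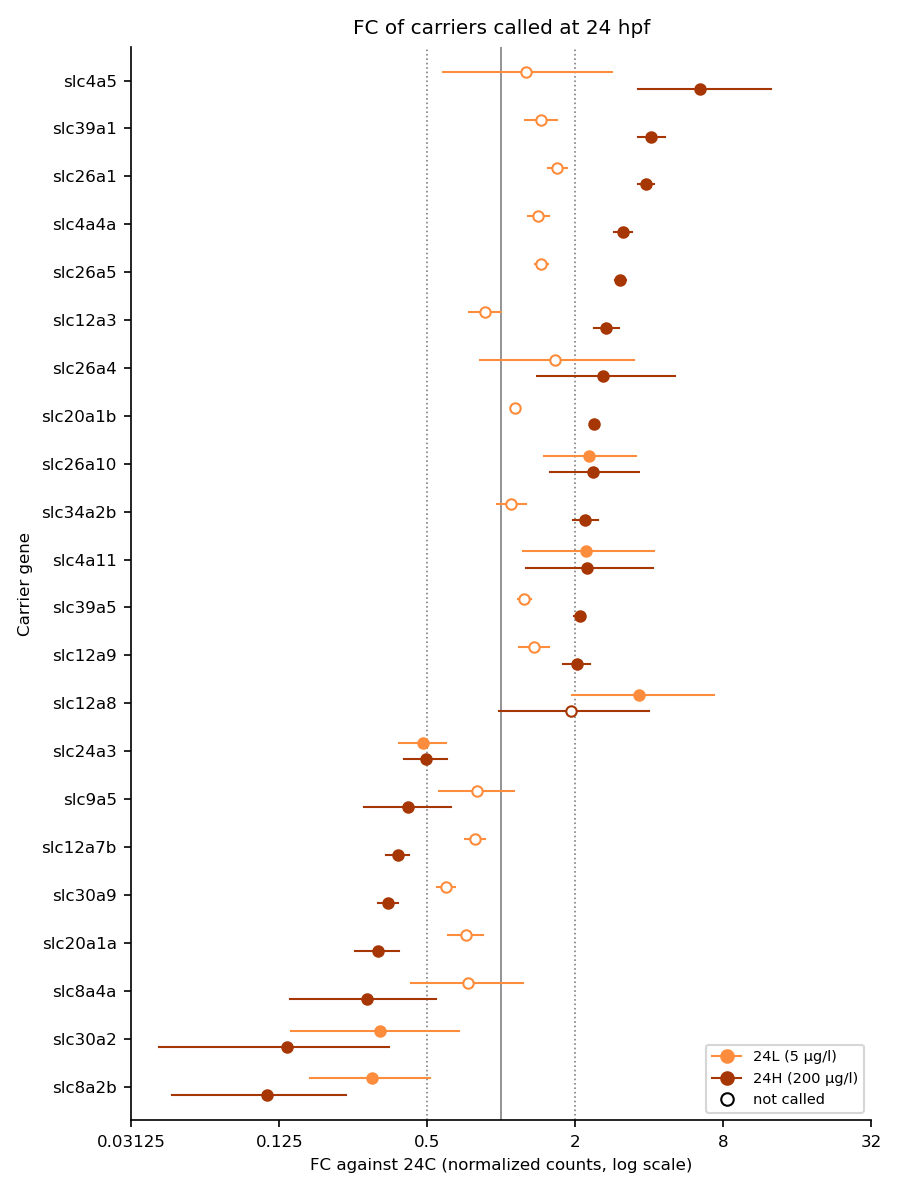
FC against 24C of carriers called at 24 hpf (log scale; points, FC; lines, 95% interval for counting error; open points, not called; dotted lines, FC of 0.5 and 2). In 24H slc4a5 stood at 6.45 and slc8a2b at 0.111, while in 24L the same genes stood at 1.26 and 0.299.

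In 24H 2 of 9 SLC39 members rose and 2 of 8 SLC30 members fell, where 11.9% of all genes tested rose and 16.4% fell. The shares of all genes given above for each comparison apply beside the counts of families and gene lists below. The importer slc39a1, known in mammals as the plasma membrane protein ZIP1, measured 3880.0 in 10C, 2939 in 10L and 5454 in 10H, and 319 in 24C, 463 in 24L and 1301 in 24H (normalized counts). It was high in every library at 10 hpf and low at 24 hpf, and 24H stood above 24L and 24C. Its FC was 4.08 (3.60–4.64) in 24H and 1.45 (1.25–1.69) in 24L. The importer slc39a5, a relative found in mammals at the base of gut and pancreas cells, measured 9312 in 10C, 7475 in 10L and 10598 in 10H, and 2241 in 24C, 2782 in 24L and 4667 in 24H, which is the same order of libraries at 24 hpf. Its FC in 24H was 2.08 (1.98–2.19), so the lower bound lies just under the 2-fold threshold.

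The 2 SLC30 carriers that fell in 24H had their highest values in 24C. The zinc carrier slc30a9, whose human relative is found in mitochondria, measured 848 in 10C, 778 in 10L and 585 in 10H, and 1494 in 24C, 889.9 in 24L and 518 in 24H, and 24C was the highest library and 24H the lowest. Its FC was 0.347 (0.314–0.382) in 24H and 0.596 (0.546–0.649) in 24L, where it was not called. The vesicle carrier slc30a2 had 30 reads in 24C, 10 in 24L and 5 in 24H, and at most 2 at 10 hpf. It fell at both doses, with an FC of 0.134 (0.0407–0.350) in 24H and 0.321 (0.140–0.675) in 24L. No SLC30 member rose at 24 hpf and no SLC39 member fell.

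The remaining SLC39 and SLC30 members did not pass the thresholds at 24 hpf. In 24H the 6 other SLC39 members with enough reads ranged in FC from 0.576 for slc39a7 to 1.79 for slc39a13, and the 6 other SLC30 members from 0.709 for slc30a10 to 1.94 for slc30a7. The importer slc39a7, which in mammals releases zinc from the endoplasmic reticulum and had the most reads of its family, measured 11377 in 10C, 10644 in 10L and 8051 in 10H, and 8439 in 24C, 6057 in 24L and 4860.4 in 24H. The control was the highest library of each age and the higher dose the lowest. The Golgi carrier slc30a7, with the most reads among the SLC30 genes, measured 1624 in 24C, 2292 in 24L and 3148 in 24H and came close to a 2-fold difference. At 10 hpf no member of these families was called in 10H, where FC ran with enough reads from 0.691 to 1.56. In 10L 1 rose, slc39a4, from 12 to 30 reads (FC 2.11, 1.05–4.52). That call was lost with p adjusted over all genes by the Benjamini-Hochberg method (0.0866), and in the exact test of edgeR with an assumed coefficient of variation between pools of 0.2 or 0.4. Of 20 other genes of zinc, copper and iron handling, 2 rose and 2 fell in 24H, beside 11.9% and 16.4% of all genes. Those that rose were the copper importer slc31a1 (FC 4.37, 4.14–4.62) and the copper pump atp7a (2.17, 2.01–2.35). The iron exporter slc40a1 (0.409, 0.388–0.431) and the copper oxidase cp (0.318, 0.280–0.361) fell. In 10L and in 10H 1 of the 20 rose, and in 24L 1 fell.

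**Figure D3:**
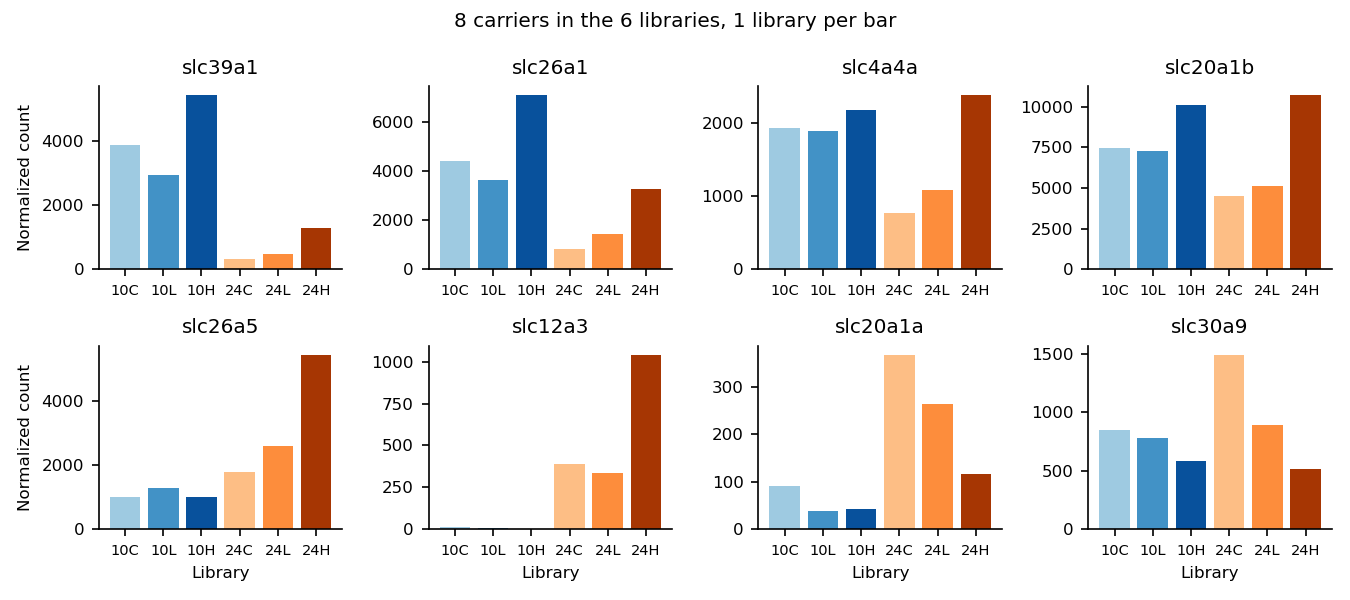
Normalized counts of 8 carriers in the 6 libraries, 1 library per bar and therefore without error bars; each panel has its own axis from 0. The bar of 24H is above that of 24C for slc39a1, slc26a1, slc4a4a, slc20a1b, slc26a5 and slc12a3 and below it for slc20a1a and slc30a9.

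Among the anion exchangers 4 of 8 SLC26 members rose in 24H and none fell, beside 11.9% and 16.4% of all genes. The mammalian namesake of slc26a1 carries sulfate and oxalate, while the closest human gene given for the zebrafish entry is SLC26A2. The exchanger slc26a1 measured 4417 in 10C, 3616 in 10L and 7106 in 10H, and 839.7 in 24C, 1418 in 24L and 3256 in 24H. Its levels were higher at 10 hpf than in the control at 24 hpf, and within 24 hpf they lay in the order of the dose. FC was 3.88 (3.59–4.19) in 24H and 1.69 (1.55–1.85) in 24L. The gene slc26a5, whose mammalian relative prestin is the motor protein of outer hair cells, measured 996 in 10C, 1286 in 10L and 992 in 10H, and 1789.6 in 24C, 2602 in 24L and 5459 in 24H. Here the libraries at 24 hpf were the high ones, again in the order of the dose, and FC was 3.05 (2.89–3.22) in 24H and 1.45 (1.37–1.55) in 24L.

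The other SLC26 calls rested on fewer reads. The gene slc26a10 had at most 2 reads at 10 hpf, then 33 in 24C, 78 in 24L and 97 in 24H. It rose at both doses, with an FC of 2.28 (1.499–3.53) in 24L and 2.37 (1.58–3.63) in 24H. Pendrin, the iodide and chloride carrier slc26a4, went from 14 reads in 24C to 45 in 24H (FC 2.59, 1.40–5.11). The 2 other members with enough reads were not called in 24H, slc26a2 with an FC of 1.14 and slc26a11 with 0.896. At 10 hpf no SLC26 member was called at either dose, and slc26a1 measured an FC of 1.61 (1.55–1.67) in 10H. The entry slc26a3 had 29 to 39 reads at 10 hpf and at most 2 at 24 hpf.

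Of the 9 SLC4 entries 3 rose in 24H and none fell, beside 11.9% and 16.4% of all genes. The sodium-bicarbonate cotransporter slc4a4a measured 1935 in 10C, 1894 in 10L and 2182 in 10H, and 767 in 24C, 1086 in 24L and 2392 in 24H. The control at 24 hpf was the lowest library, and 24H lay above all the others. FC was 3.12 (2.87–3.39) in 24H and 1.42 (1.29–1.56) in 24L. Its paralog slc4a4b measured 434, 430.0 and 302 in 24C, 24L and 24H and was not called there. At 10 hpf slc4a4b went both ways, with 42 reads in 10C, 105 in 10L and 17 in 10H, an FC of 2.11 (1.46–3.09) in 10L and 0.406 (0.216–0.728) in 10H.

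The bicarbonate carrier slc4a5 rose at the higher dose of both ages. It had 16 reads in 10C, 14 in 10L and 66 in 10H, and 13 in 24C, 17 in 24L and 104 in 24H. Within each age the library at 200 μg/l was the highest. Other carriers had this order too, among them slc4a4a, slc20a1b, slc26a1, slc34a2b and slc39a1. These are single libraries of different ages and not repeats, and the share of all genes with this order was not computed. FC was 4.13 (2.37–7.65) in 10H and 6.45 (3.61–12.5) in 24H. The gene slc4a11, whose human relative is known from the corneal endothelium, had 0 reads in 10C, 17 in 10L and 6 in 10H. With the 0 set to a floor of 3 counts, its ratio was 4.78 in 10L and 2.00 in 10H. That ratio leaves out counting error, and the lower 95% limits of FC were 3.48 and 1.18. At 24 hpf slc4a11 had 17, 39 and 47 reads in 24C, 24L and 24H, an FC of 2.21 (1.22–4.17) in 24L and 2.23 (1.26–4.14) in 24H. It passed the thresholds in all 4 comparisons, as no other carrier did (1.56%, against 0.245% of all genes), but the call in 10H was lost with adjusted p (0.0644) and both calls at 10 hpf with a mean of at least 10 reads. With an assumed coefficient of variation between pools of 0.2 the calls at 24 hpf were lost, and with 0.4 the one in 10L alone was kept. The 5 other SLC4 entries with enough reads measured FCs from 0.695 to 1.23 in 24H.

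Carbonic anhydrases make the bicarbonate that most of these carriers move. Of 15 of them, 6 rose and 3 fell in 24H, beside 11.9% and 16.4% of all genes. The summed level of the 15 in 24H was nonetheless 0.665 times that of 24C. The membrane-bound ca15b, which in zebrafish is a paralog of an ionocyte enzyme, measured 36.4 in 24C, 77.3 in 24L and 153 in 24H (FC 4.22, 2.91–6.28), and ca8, a relative without enzyme activity, measured an FC of 2.68 (2.36–3.04). The red blood cell enzyme cahz, which is also on the red blood cell marker list above, fell from 7860.1 in 24C to 2106 in 24H (FC 0.268, 0.256–0.281). Globins fell in the same library, and a link with cahz was not tested. In 24L 1 rose and 2 fell, in 10H 3 rose and 2 fell, and in 10L none was called.

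Of the 7 SLC12 entries 2 rose and 1 fell in 24H, beside 11.9% and 16.4% of all genes. The sodium-chloride cotransporter slc12a3, which in the zebrafish pronephros marks the distal tubule, measured 10.5 in 10C, 3.54 in 10L and 0 in 10H, and 390.4 in 24C, 335 in 24L and 1044 in 24H. It was near 0 at 10 hpf and high at 24 hpf, and 24H lay above 24C and 24L. FC was 2.67 (2.38–3.01) in 24H and 0.858 (0.737–1.00) in 24L. At 10 hpf it had 10 reads in 10C, 4 in 10L and 0 in 10H. With the 0 set to the same floor, 10H was 3.33-fold lower than 10C, and the upper 95% limit of FC was 0.447. The call in 10H was lost with a mean of at least 10 reads. Of the 6 pronephros markers 3 rose and 1 fell in 24H, and 2 fell in 10H, and a link with slc12a3 was not tested.

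The potassium-chloride cotransporter slc12a7b measured 104 in 10C, 118 in 10L and 87.2 in 10H, and 1065 in 24C, 835 in 24L and 403 in 24H, so the libraries at 24 hpf were the high ones, with the higher dose lowest among them. FC was 0.379 (0.338–0.423) in 24H and 0.784 (0.714–0.861) in 24L. Its RefSeq symbol is also slc12a7b, while the closest human gene given for it is SLC12A5, the chloride extruder of neurons. In the same comparison 7 of 8 neuronal markers fell, and a link with slc12a7b was not tested. The orphan member slc12a9 rose from 357 in 24C to 723 in 24H (FC 2.02, 1.78–2.30), a call that was lost with library totals, where FC was 1.99. In 24L slc12a8 alone of the family rose, from 13 to 49 reads (FC 3.63, 1.94–7.30), and with 31 reads it was not called in 24H. The sodium-potassium-chloride cotransporter slc12a2, with the most reads of the family, was called in none of the 4 comparisons and measured FCs from 1.00 in 24H to 1.48 in 10L. The 4 SLC12 entries that were not called in 24H lay between 0.567 for slc12a10 and 1.92 for slc12a8. WNK kinases switch these cotransporters on or off through partner kinases. Of 9 such genes 2 rose in 24H and none fell, beside 11.9% and 16.4% of all genes. The entry LOC557091, wnk4b in RefSeq, measured an FC of 6.48 (5.62–7.50) and wnk1, wnk1b in RefSeq, 2.42 (2.28–2.58). In 24L and in 10H 1 rose, and in 10L none was called.

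Both copies of the phosphate carrier SLC20A1 were called in 24H, in opposite directions. The copy slc20a1b measured 7475 in 10C, 7295 in 10L and 10093 in 10H, and 4488 in 24C, 5126 in 24L and 10729 in 24H, with 10H and 24H as the highest libraries and 24C as the lowest. FC was 2.39 (2.31–2.48) in 24H, and below the threshold in 24L (1.14, 1.096–1.19) and 10H (1.35, 1.31–1.39). The copy slc20a1a, a marker of the proximal tubule of the zebrafish pronephros, measured 91.3 in 10C, 38.9 in 10L and 42.0 in 10H, and 368 in 24C, 264 in 24L and 115 in 24H. It was highest in the control of each age, and both treated libraries of that age lay below. FC was 0.314 (0.255–0.384) in 24H, 0.717 (0.608–0.846) in 24L, 0.461 (0.309–0.677) in 10H and 0.426 (0.290–0.620) in 10L, which passed the thresholds in all but 24L.

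The SLC34 carrier slc34a2b, which takes up phosphate with sodium in epithelia, measured 848 in 10C, 970.4 in 10L and 1708 in 10H, and 425 in 24C, 466 in 24L and 934 in 24H. The 2 libraries at 200 μg/l were each above the others of their age, as they were for slc4a5 and other carriers. FC was 2.20 (1.96–2.47) in 24H and 2.01 (1.85–2.19) in 10H, the latter at the threshold: with the libraries scaled by their totals it was 1.98 and with TMM factors 1.97, and the call was lost. Its relative slc34a2a had at most 3 reads in any library. Of 16 regulators of phosphate and calcium, 4 rose and 4 fell in 24H, beside 11.9% and 16.4% of all genes. The vitamin D hydroxylase cyp24a1, which breaks the hormone down, measured 86.0 in 10C, 92.0 in 10L and 263 in 10H, and 93.1 in 24C, 516 in 24L and 1768 in 24H, an FC of 19.0 (15.3–23.8) in 24H, 5.54 (4.40–7.04) in 24L and 3.05 (2.37–3.97) in 10H. The stanniocalcin stc2, stc2a in RefSeq, rose as well (FC 7.40, 6.29–8.76 in 24H). The parathyroid hormone gene pth1a (0.263, 0.143–0.463) and phex (0.308, 0.272–0.347), a peptidase that guards phosphate balance, fell. In 10H 5 regulators rose and 1 fell, in 24L 1 rose and 2 fell, and in 10L 1 fell.

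The sodium-calcium exchangers were measured at low counts, and none had more than 208 reads in any library. The exchanger slc8a1a, which zebrafish need for a regular heartbeat, had 1 read in 10C, 17 in 10L and 15 in 10H, then 112 in 24C, 102 in 24L and 208 in 24H. It rose at both doses at 10 hpf, with an FC of 14.3 (2.25–599) in 10L and 15.0 (2.31–633) in 10H, and both intervals are wide because the shared control holds a single read, and with a mean of at least 10 reads both calls were lost. At 24 hpf it was not called, with an FC of 0.878 (0.665–1.16) in 24L and 1.496 (1.18–1.90) in 24H. Its paralog slc8a1b rose in 10H from 21 to 43 reads (FC 2.05, 1.19–3.64) and measured an FC of 0.533 (0.406–0.697) in 24H.

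The exchanger slc8a2b, a neuronal type in mammals, had 2 reads in 10C, 0 in 10L and 18 in 10H, and 58 in 24C, 18 in 24L and 8 in 24H. It was higher with the high dose at 10 hpf and fell in the order of the dose at 24 hpf. FC was 9.02 (2.16–80.1) in 10H. The older embryos gave an FC of 0.299 (0.166–0.515) in 24L and 0.111 (0.0458–0.234) in 24H. The paralog slc8a2a fell in 10H, from 26 to 11 reads (FC 0.424, 0.189–0.888), and slc8a4a, of a type kept in fishes, fell in 24H from 37 to 13 reads (FC 0.283, 0.138–0.545). The calls of slc8a1b and slc8a2a in 10H were lost with an assumed coefficient of variation of 0.2. No SLC8 member rose at 24 hpf, and the 4 with enough reads that were not called in 24H lay between 0.533 and 1.496.

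The gene slc24a3 measured 51.4 in 10C, 46.0 in 10L and 145 in 10H, and 275 in 24C, 132 in 24L and 135 in 24H, so that 10H was high among the younger embryos and 24C among the older ones. It rose in 10H (FC 2.82, 2.02–3.99) and fell in 24L (0.480, 0.385–0.596) and 24H (0.492, 0.401–0.603), where with TMM factors FC was 0.508 and the call was lost. The gene slc24a1 fell in 10H from 16 to 5 reads (FC 0.313, 0.0897–0.894). This call was lost with adjusted p (0.0565) and with an assumed coefficient of variation of 0.2 or 0.4. Its mammalian namesake is known from rod photoreceptors, while the closest human gene given for the zebrafish entry is SLC24A2. Of 25 calcium pumps, release channels and buffers, 5 rose and 6 fell in 24H, beside 11.9% and 16.4% of all genes. Those with the highest FC were the plasma membrane pump atp2b1b (2.75, 2.10–3.64) and the store channel itpr2 (2.71, 2.43–3.01), and those with the lowest were the pump atp2b2 (0.110, 0.0547–0.202) and the store channel ryr3 (0.147, 0.125–0.173). In 24L 1 rose and 1 fell, in 10H 3 rose and 1 fell, and in 10L 1 rose.

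**Figure D4:**
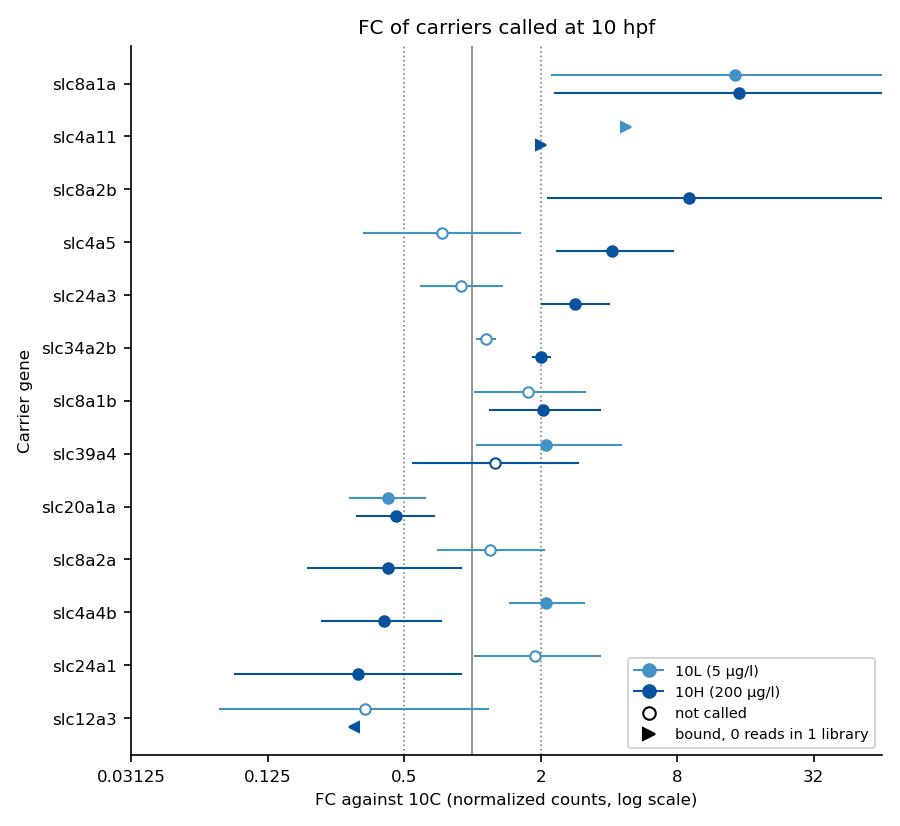
FC against 10C of carriers called at 10 hpf, drawn as in the plot of 24 hpf. Arrowheads (bound) have the 0 reads of 1 library set to 3 counts and leave out counting error. Lines that reach the right edge go beyond it. The 10L value of slc8a2b, with 2 reads in 10C and 0 in 10L, is not drawn. The 10L and 10H points lie on opposite sides of 1 for slc4a4b, 2.11 and 0.406.

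Of the 9 SLC9 entries none rose in any of the 4 comparisons. In 24H slc9a5, a type of the mammalian brain, fell from 75 to 39 reads (FC 0.419, 0.277–0.625). The exchanger slc9a2, with the most reads of the family, measured 3405 in 10C, 2442 in 10L and 4692 in 10H, and 741 in 24C, 804 in 24L and 705 in 24H, which is high at 10 hpf and low at 24 hpf. It was called at neither age. Members of the family with enough reads that were not called ranged in FC from 0.875 to 1.51 in 24H.

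Sodium carriers run on the gradient that the sodium-potassium ATPase sets up. Of its 12 subunit and regulator genes 2 rose and 4 fell in 24H, beside 11.9% and 16.4% of all genes. The summed level of the 12 in 24H was nonetheless 1.63 times that of 24C. Those that rose were atp1b3a (FC 2.52, 2.44–2.60) and atp1b1a (2.47, 2.399–2.54). Among those that fell were atp1b4 (0.0987, 0.0814–0.119) and the neuronal subunit atp1a3a (0.345, 0.315–0.378). In 10H 3 fell and none rose, while the summed level was 1.26 times that of 10C, and none was called at 5 μg/l. Of 21 genes that specify ionocytes or work beside the carriers in them, 7 rose and 3 fell in 24H, beside 11.9% and 16.4% of all genes. The ionocyte factor foxi3a measured 769 in 10C, 610.4 in 10L and 548 in 10H, and 379 in 24C, 678 in 24L and 1521 in 24H (FC 4.02, 3.58–4.52 in 24H), while the calcium channel trpv6 measured 15.7 in 10C, 3.54 in 10L and 3.15 in 10H, and 336 in 24C, 210.4 in 24L and 94.8 in 24H (0.282, 0.225–0.352). In 10H 2 of the 21 rose and 6 fell, beside 6.69% and 6.33% of all genes, and the summed level was 0.986 times that of 10C. Among those that fell were gcm2, a factor of proton-secreting ionocytes, at 121 in 10C and 2.10 in 10H (FC 0.0174, 0.00209–0.0644), and foxi3b, at 132 and 19.972 (0.151, 0.0880–0.246). In 10L and in 24L 1 rose and 1 fell each. Of the 4 ionocyte markers 1 rose and 1 fell in 24H and 2 fell in 10H, with summed levels 1.12 and 0.624 times those of the controls. The markers foxi3a, foxi3b and trpv6 are also among the 21, so these counts are not separate from those above.

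The remaining marker lists were counted in the same way. In 10H 2 of 5 hatching gland genes (summed ratio 0.300), 2 of 6 pronephros genes (0.925), 2 of 6 red blood cell genes (1.34) and 2 of 7 yolk syncytial genes (0.526) fell. With them 2 of 8 tail bud genes (1.52), 1 of 6 skeletal muscle genes and 1 yolk syncytial gene rose. The pigment cell list gave 1 in each direction and the otic vesicle list 2 in each, and the heart, lens, epidermal and neuronal lists gave none. In 24H the hatching gland and heart muscle lists had 2 that fell each (0.617 and 0.576). The otic vesicle list had 3 in each direction (2.13), and the yolk syncytial list 1 that rose and 4 that fell (1.08). At 5 μg/l no marker list other than tail bud and lens had more than 2 genes called in a direction.

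The controls of the 2 ages give the scale of normal development for these genes. From 10C to 24C 22 of 64 carriers were higher (34.4%, against 28.6% of all genes) and 13 lower (20.3%, against 18.2%). Leaving aside carriers under 50 reads at both ages, the highest ratios were those of slc8a1a, 114 (20.1–4550), slc12a3, 37.2 (20.004–78.3), and slc8a2b, 29.6 (7.82–250). The lowest were those of slc39a1, 0.0822 (0.0728–0.0925), slc26a1, 0.190 (0.176–0.205), and slc9a2, 0.218 (0.2003–0.236). In SLC8 5 of 7 were higher and none lower in 24C, in SLC39 1 was higher and 4 lower. These ratios share the library 24C with those of 24H against 24C, so the 2 sets are given side by side and not related to each other.

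The treated libraries of an age were also compared with each other, with no control involved. They are the same libraries that were set against the controls above, so these ratios are not a repeat of those results. In 24H against 24L 8 carriers were higher (12.5%, against 6.74% of all genes) and 5 lower (7.81%, against 11.0%). The 8 were slc4a5, with a ratio of 5.11 (3.04–9.11), slc12a3, 3.11 (2.75–3.53), slc39a1, 2.81 (2.53–3.13), slc26a1, 2.30 (2.16–2.44), slc4a4a, 2.20 (2.05–2.37), slc26a5, 2.10 (2.00–2.20), slc20a1b, 2.09 (2.03–2.16), and slc34a2b, 2.00 (1.79–2.24). The lower ones included slc8a4a, with a ratio of 0.388 (0.185–0.774), slc8a2b, 0.371 (0.140–0.898), slc20a1a, 0.437 (0.352–0.541), and slc12a7b, 0.483 (0.430–0.542). In 10H against 10L 4 were higher (6.25%, against 7.69%) and 5 lower (7.81%, against 8.72%), with slc4a5 at 5.60 (3.11–10.8) and slc4a4b at 0.192 (0.108–0.323).

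How far these calls rest on the missing replicates cannot be measured here, so a spread between pools was assumed. With a biological coefficient of variation of 0.2 in the exact test of edgeR, all 25 FCs picked by the rule for named genes (at least 50 reads in the higher library, at most 10 per direction) kept their call. With 0.4, 5 of the 25 kept it: slc4a5 in 10H and 24H, and slc39a1, slc26a1 and slc8a2b in 24H. The counts in 24H then fell from 13 and 9 to 3 and 3. The 25 were picked for FCs beyond 2-fold and many reads, which largely fixed the result with 0.2. Of all 46 calls of carriers against controls, 7 were lost with 0.2 and 34 with 0.4.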

How the data were processed

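RNA of 6 pools of whole embryos was sequenced, 1 library per group. The authors mapped the reads with Tophat and annotated them further against the human genome (zebrafish assembly Zv9 and human hg19 in the submitters' processing notes, Zv10 in the study's methods), while the counting program and the strand setting were not given in the sources used here. The deposited table holds normalized counts, a signal that is the number of reads times a factor of the library. Every value (100%) was a whole number of steps of its library (tolerance 0.001 reads), which gave back the reads. The study's methods name TMM in edgeR for this step, but the 6 factors equal median-of-ratios size factors computed from the reads, and TMM factors computed with edgeR 4.0.16 differed from them by 0.406% to 3.61%. The file's values were used as they are.

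Carriers were picked by symbol, and a treated library was set against its control of the same age in an exact binomial test of their reads given the factors, two-sided, at the study's thresholds (more than 2-fold, p under 0.05), because DEGseq was not used. Where 1 library had 0 reads, the 0 was set to a floor of 3 counts, and the resulting ratio leaves out counting error. The test was tried on simulated libraries with 200 changed genes. These were drawn with counting error only, so the trial cannot speak to variation between pools. Depth sets the counting error, which is all that the intervals (95% Clopper-Pearson) cover, PCR duplicates not being known. Variation between pools was not measured.

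Named carriers were those called whose higher library held at least 50 reads (per comparison the 10 highest and 10 lowest FC), slc8a1a, and the carrier with the most reads of each family. Other carriers were named to account for the calls, after their values had been seen. The values of 1 carrier are not reported here, and it is counted in all totals but left out of the figures. Pathway genes named were at most the 2 highest and 2 lowest called of a list. The carriers and the 7 pathway and 13 marker lists were chosen with earlier results of these data known. Of their 219 symbols 160 matched by name, 34 through RefSeq names, 5 by a shortened name, and 20 did not match.

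Alternatives were library totals, median-of-ratios factors, TMM factors computed with edgeR, a mean of at least 10 reads, adjusted p (Benjamini-Hochberg over all genes), and the exact test of edgeR at a coefficient of variation between pools set to 0.2 or 0.4. For medians, 10 added in place of 1 and no minimum of reads were tried as well. TMM factors were chosen after seeing the data, and so were all alternatives for the comparisons 24C with 10C, 10H with 10L and 24H with 24L and for the opposite calls at the 2 ages. Python 3.11.15, numpy 2.4.6, pandas 2.3.3, scipy 1.17.1, matplotlib 3.10.9 and R 4.3.3 were used.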

Additional observations from a re-analysis of the deposited data

Results flagged for a closer look

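At 200 μg/l 3 carriers (4.69%, against 1.91% of all genes tested) were called in opposite directions at the 2 ages, and at 5 μg/l none was. No test of the difference between the ages is given for these 3, since carriers picked for opposite calls have unlike FCs by that choice.

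The calcium exchanger slc8a2b rose in 10H, FC 9.02 (2.16–80.1), and fell in 24H, FC 0.111 (0.0458–0.234). Its 10 hpf value rests on 2 reads in 10C and 18 in 10H. The exchanger slc24a3 rose in 10H, FC 2.82 (2.02–3.99), and fell in 24H, FC 0.492 (0.401–0.603), the second call being lost with TMM factors. The cotransporter slc12a3 had 10 reads in 10C and 0 in 10H, 3.33-fold lower with the 0 set to 3 counts (upper 95% limit of FC 0.447). It rose in 24H, FC 2.67 (2.38–3.01). With a mean of at least 10 reads its call in 10H was lost. With an assumed coefficient of variation of 0.4, 1 of the 3 kept both calls, slc8a2b.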

How the results depend on the processing

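No paired analysis was possible because each group is 1 library, and for the same reason no library could be left out. Median-of-ratios factors gave the values as reported, since the deposited factors equal them. Only library totals and TMM factors could change a named FC, since the other alternatives use the same FC. They shift all FCs of a comparison by 1 factor, and none of the named FCs, picked for being beyond 2-fold, reversed direction. The median log2 FC of the carriers changed sign in 24L, from 0.03 to -0.02 with library totals and to -0.0008 without the minimum of reads. In 10H that median went from 0.03 to -0.005 with TMM factors. In 24H it went from 0.19 to 0.09 without the minimum of reads. In 10L the carriers that rose went from 4 to 2 with a mean of at least 10 reads, and those that fell from 2 to 1 with that minimum, library totals, adjusted p, TMM factors or a coefficient of variation of 0.2. In 10H those that fell went from 5 to 3 with 0.2. With a coefficient of variation of 0.4 the counts that rose and fell were 2 and 0 in 10L, 3 and 1 in 10H, 0 and 0 in 24L (from 3 and 3), and 3 and 3 in 24H. With 0.4, too, 6 carriers (from 13) were lower in 24C than in 10C, 2 higher and 2 lower in 10H than in 10L (from 4 and 5), 1 higher and 1 lower in 24H than in 24L (from 8 and 5), and 1 (from 3) was called in opposite directions at the 2 ages. The zero counts in 24L are from the exact test of edgeR, and the exact binomial test called 3 and 3 there at an unadjusted p. Of the 25 named FCs, 20 lost their call with 0.4, none with 0.2, none with adjusted p, 1 with library totals (slc34a2b in 10H, 1.98) and 2 with TMM factors (slc34a2b in 10H, 1.97, and slc24a3 in 24H, 0.508). These 25 were picked for FCs beyond 2-fold and many reads, which largely fixed the results with 0.2 and with adjusted p. Library totals moved the median log2 FC of all genes in 10L from -0.02 to 0.11 and that of the carriers from 0.07 to 0.20. Of all 46 calls of carriers against controls, 3 were lost with library totals, 3 with TMM factors, 6 with a mean of at least 10 reads, 4 with adjusted p, 7 with a coefficient of variation of 0.2 and 34 with 0.4. Depth limits the 9 carriers with 0 reads in a library, for which no FC can be given there, and the 5 with under 10 reads on average, of which slc30a2 alone was called.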
